A study of Mus musculus with 2 samples.

Results

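The chemokines of the infarcted heart were taken as 9 secreted or shed ligands found by symbol among the 32245 gene symbols of the deposited feature tables: Ccl2, Ccl5, Ccl6, Ccl7, Ccl8, Ccl9, Ccl21a, Cxcl12 and Cxcl16. They occupied 10 of 32285 feature rows, because Ccl21a was listed under 2 gene identifiers. The data came from Visium, an assay in which a tissue section is laid on a grid of barcoded capture spots and each captured transcript is counted once by its unique molecular identifier (UMI). Hearts of C57BL/6 mice were collected 7 days after myocardial infarction, which had been induced at postnatal day 2 by tying off the left anterior descending coronary artery. The PD1 Het section came from an animal that carried 1 intact copy of the PD-1 gene, and the PD1 KO section from an animal that lacked PD-1. The control was therefore heterozygous and not wild type, both animals had been infarcted, and each group was 1 section of 10 µm taken 200 µm below the suture. With 1 section per group no test could be made, and every interval given is a 95% interval that covers counting error only.

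Chemokines are small proteins that direct the movement of leukocytes by binding G protein-coupled receptors on them. In the infarcted heart, Ccl2 and its relatives draw monocytes from the blood through the receptor Ccr2, Ccl5 attracts T cells and myeloid cells, and Ccl6 and Ccl9 are mouse chemokines made by myeloid cells. Ccl21a guides dendritic cells and lymphocytes that carry Ccr7 toward lymphatic vessels, while Cxcl12 is made by stromal and vascular cells and acts on Cxcr4. PD-1, a receptor on activated T cells, restrains their responses.

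The PD1 Het section kept 811 spots with 12814494 UMIs and the PD1 KO section 851 spots with 23520499. The median spot held 15475 and 27134 UMIs, and mitochondrial genes took 25.6% and 15.9% of UMIs. The sections shared 225 spot barcodes, which belong to the array and not to cells. Pdcd1, which encodes PD-1, had 0 UMIs in both sections, so it did not check the labels. Levels are given as counts per 1000000 UMIs of the section (CPM). Ratios are PD1 KO over PD1 Het on the log2 scale, less the ratio of the median gene, which was 0.33. A Visium spot is a small region that can hold several cells, so more cells of a type and more RNA per cell cannot be told apart.

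Of the 9 genes, 6 lie on mouse chromosome 11 in 2 groups of neighbours (GRCm38, GENCODE vM21). Ccl2 (chr11:82035571-82037453), Ccl7 (chr11:82045712-82047525) and Ccl8 (chr11:82115185-82116799) lie on the plus strand, with 8.258 kb between Ccl2 and Ccl7 and 67.7 kb between Ccl7 and Ccl8. Ccl5 (chr11:83525778-83530518), Ccl9 (chr11:83572919-83578636) and Ccl6 (chr11:83587882-83593087) lie on the minus strand 1409 kb farther on, with 42.4 kb between Ccl5 and Ccl9 and 9.245 kb between Ccl9 and Ccl6. Cxcl16 (chr11:70453983-70459984) lies apart on the same chromosome, Ccl21a at chr4:42772860-42773993 and Cxcl12 at chr6:117168535-117181367. In its annotated transcript with most exons each gene has 3 to 6, and the values below count UMIs over the whole gene. Of the 31-base words in the Ccl21a transcript, 80.6% also occur in other annotated genes, most of them in Gm21541. The other rows of that family, Ccl21b, Ccl21c, Gm13304, Gm10591 and Gm21541, held 0 UMIs in both sections, and the treatment of reads shared between copies is not given in the sources used here. For this reason the Ccl21a level is uncertain in absolute terms.

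RefSeq promoter entries (GRCm38.p6) were matched for 5 of the 9 genes. The 250 bases before the start are shown for 4 of them: Ccl6 and Ccl9, neighbouring genes whose spots were both rich in macrophage markers, Ccl8, which was far higher in the PD1 KO section, and Ccl21a, which was far lower there. Capitals mark matches on either strand to GAGGAA (PU.1), TATAAA (bound by TBP), TGANTCA (AP-1) or the NF-kappaB motif, and TTCNNNGAA (GAS) was also searched. The windows are chr11:82114935-82115184 (plus strand) for Ccl8, chr11:83593088-83593337 (minus) for Ccl6, chr11:83578637-83578886 (minus) for Ccl9 and chr4:42773992-42774241 (minus) for Ccl21a.
Ccl8: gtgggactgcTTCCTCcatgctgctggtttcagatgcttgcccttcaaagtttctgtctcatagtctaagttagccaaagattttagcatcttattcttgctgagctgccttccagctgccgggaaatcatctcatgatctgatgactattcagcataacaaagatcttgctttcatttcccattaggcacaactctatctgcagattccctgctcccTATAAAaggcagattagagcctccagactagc
Ccl6: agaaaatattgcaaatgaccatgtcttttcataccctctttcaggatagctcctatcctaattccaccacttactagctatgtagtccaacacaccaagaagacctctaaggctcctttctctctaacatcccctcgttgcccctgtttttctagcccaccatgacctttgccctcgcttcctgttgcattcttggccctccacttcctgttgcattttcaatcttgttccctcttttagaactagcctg
Ccl9: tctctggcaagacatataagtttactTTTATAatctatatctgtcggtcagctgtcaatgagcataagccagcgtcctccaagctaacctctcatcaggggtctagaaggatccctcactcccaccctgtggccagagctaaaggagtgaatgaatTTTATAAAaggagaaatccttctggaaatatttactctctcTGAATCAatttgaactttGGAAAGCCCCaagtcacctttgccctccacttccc
Ccl21a: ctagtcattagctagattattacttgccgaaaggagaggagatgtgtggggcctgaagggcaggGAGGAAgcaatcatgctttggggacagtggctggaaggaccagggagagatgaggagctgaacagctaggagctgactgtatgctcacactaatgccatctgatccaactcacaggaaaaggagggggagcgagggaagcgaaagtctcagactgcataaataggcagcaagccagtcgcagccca
The Ccl8 window holds TTCCTC, the complement of GAGGAA, near its far end and TATAAA close to the start. The Ccl9 window holds a TTTATA on the complementary strand, an overlapping pair of TATA matches, 1 AP-1 match and 1 NF-kappaB match, and the Ccl21a window holds 1 GAGGAA. None of the searched letters is in the Ccl6 window. Over 32851 promoter windows of the same length, GAGGAA is in 23.3%, TATAAA in 12.4%, TTCNNNGAA in 7.02%, TGANTCA in 6.75% and the NF-kappaB motif in 3.90%. A match is only a run of letters.

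Ccl5 and Ccl8 were higher in the PD1 KO section, Ccl21a was higher in the PD1 Het section, and the other 6 chemokines lay within 1.5-fold of the median gene. All 9 genes had a summed count of 30 UMIs or more. Of them, 2 exceeded the median gene by 1.5-fold or more, against 7.05% of the 13163 genes with as many UMIs, and 1 fell short of it by that factor, against 4.95%. Among the 4119 genes with 30 or more but fewer than 300 UMIs, where counting error is larger, the shares were 14% and 10.3%. The median over the 9 genes was 0.09, with 7 of 9 above 0, on the scale where the median gene is 0. The plot of levels by section shows the 9 genes side by side.

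**Figure D1:**
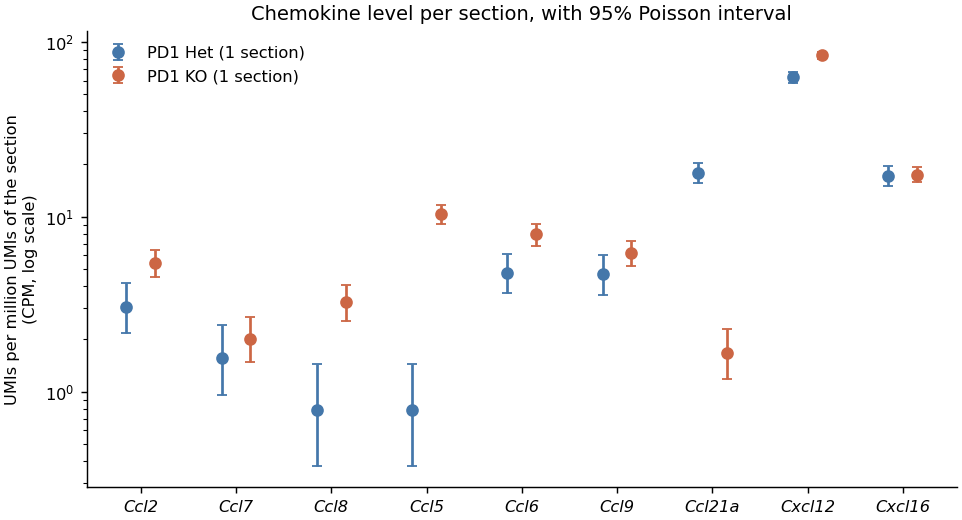
CPM of each chemokine (log axis) in the PD1 Het and PD1 KO section; points are 1 section each and bars 95% Poisson intervals. Ccl8 and Ccl5 sit at 0.780 CPM in the PD1 Het section and at 3.23 and 10.3 in the PD1 KO section, and Ccl21a sits at 17.8 and 1.66.

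Ccl2, the main attractant of Ccr2+ monocytes, had 39 UMIs in 35 of 811 PD1 Het spots and 128 UMIs in 87 of 851 PD1 KO spots. Its level was 3.04 CPM (2.16 to 4.16) and 5.44 CPM (4.54 to 6.47), a relative log2 ratio of 0.51 (-0.02 to 1.06). The 2 sections' CPM intervals did not overlap, but the interval of the relative ratio included 0. The PD1 Het UMIs were scattered, with at most 2 in a spot, whereas PD1 KO spots held up to 9, 7, 5 and 5.

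Ccl7, encoded next to Ccl2 and also a Ccr2 ligand, had 20 UMIs in 19 PD1 Het spots and 47 UMIs in 36 PD1 KO spots. The levels of 1.56 and 2.00 CPM gave a relative ratio of 0.03 (-0.76 to 0.86), too wide to place the sections in an order. In the PD1 KO section, 11 of the 36 Ccl7 spots (30.6%) also held Ccl2, which was present in 9.33% of the spots without Ccl7. In the PD1 Het section, 0 of 19 Ccl7 spots held Ccl2. As Ccl2 was in only 4.32% of all PD1 Het spots, this 0 does not set the sections apart.

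Ccl8, the third gene of the same cluster, is in the mouse a ligand of Ccr8. It had 10 UMIs in 2 PD1 Het spots and 76 UMIs in 38 PD1 KO spots, at 0.780 CPM (0.374 to 1.44) and 3.23 CPM (2.55 to 4.04). Over all spots the relative log2 ratio was 1.72 (0.76 to 2.84). Both PD1 Het spots were shallow: the spot with 8 Ccl8 UMIs held 4949 UMIs in all and the spot with 2 held 3311, ranks 796 and 800 of 811. Those spots were rich in macrophage, fibroblast and matrix RNA, with 54 and 34 UMIs of 9 fibroblast markers and 17 and 26 of 14 macrophage markers. Their macrophage marker level was 14.9-fold (10.7 to 20.1) that of the other spots. Fibroblast markers and scar matrix genes were each at 5.45-fold, and cardiomyocyte markers at 0.29-fold. MHC class II genes had 0 and 1 UMIs in these spots, too few to compare. Among spots with at least 5000 UMIs, which leaves out both of those PD1 Het spots, Ccl8 was at 0 UMIs in PD1 Het and at 76 in PD1 KO. With 3 counts put in place of that 0, the log2 ratio less the shift of the median gene was 3.45. This value leaves out the counting error of the PD1 KO count and is not the end of an interval. After each spot was thinned to 10000 UMIs, 0 of 759 PD1 Het spots held Ccl8, while 22 of 839 PD1 KO spots did (2.62%, 1.65 to 3.94).

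In the PD1 KO section Ccl8 was in 38 of 851 spots (4.47%). Of these spots 16 held at least 2 UMIs, and the highest held 10, 7, 7 and 3. These spots were where antigen presentation and macrophage genes were high. The 4 MHC class II genes together reached 681 CPM in the 38 spots and 69.7 CPM in the other 813 spots, a 9.77-fold difference (8.87 to 10.8), and 10.9-fold without the spot richest in these genes. Cd74, the invariant chain of MHC class II, had 277 of its 959 UMIs in Ccl8 spots, and 31 of the 38 spots held it. The macrophage markers were 4.53-fold higher there (4.29 to 4.77), with a median of 1428 CPM per spot against 279. The complement gene C1qa was 4.43-fold higher, and Cd68, a lysosomal protein of macrophages, 8.96-fold. The 10 resident macrophage markers were only 1.51-fold higher.

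Genes of recruited and injury macrophages were 8.44-fold higher in PD1 KO Ccl8 spots, but 4.02-fold without their richest spot, which held 282 of the 526 UMIs. Spp1, which encodes osteopontin, was the most abundant of them there, with 199 UMIs in the 38 spots. Mast cell genes were 14.5-fold higher, and 6.82-fold without their richest spot. Cma1 and Mcpt4, proteases of mast cells, had 46.0% and 51.2% of their UMIs in the 38 Ccl8 spots. The spot with 10 Ccl8 UMIs was a deep one, with 30598 UMIs, and was high in antigen presentation genes: Cd74 had 18 UMIs there (14.7-fold over the rest of the section), H2-Ab1 10 (16.5-fold) and H2-K1 66 (14.8-fold). Over the whole section, all 4 MHC class II genes were higher in PD1 KO, with a median relative ratio of 1.30. The 14 macrophage markers as a group had a median of 0.10, with 2 above and 1 below 1.5-fold. Of 9 injury macrophage genes, 7 had at least 30 UMIs, with a median of 0.45, 3 above and 0 below. Of the 10 resident macrophage markers 7 did, with a median of -0.88, 0 above and 5 below. Over all genes with as many UMIs, 7.05% lay above and 4.95% below, and below 300 UMIs 14% and 10.3%. The part of any of these lists in the Ccl8 difference was not tested.

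Ccl5, which attracts T cells and myeloid cells and is made by cytotoxic lymphocytes among others, had 10 UMIs in 9 PD1 Het spots and 243 UMIs in 50 PD1 KO spots. The levels were 0.780 CPM (0.374 to 1.44) and 10.3 CPM (9.07 to 11.7), a relative ratio of 3.40 (2.49 to 4.47). The highest PD1 KO spots held 155, 16, 8 and 5 UMIs, while no PD1 Het spot held more than 2. Without the top spot of each section, 8 and 88 UMIs remained, a relative ratio of 2.25 (1.21 to 3.51). At 10000 UMIs per spot, Ccl5 was in 7 of 759 PD1 Het spots (0.922%, 0.372 to 1.89) and in 23 of 839 PD1 KO spots (2.74%, 1.75 to 4.09), and these intervals overlapped.

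The spot with 155 Ccl5 UMIs was shallow for its section, with 17698 UMIs (rank 803 of 851), and 71 of them came from MHC class II genes, 45.2-fold the level of the rest. It held 10 of the 35 PD1 KO UMIs of Ccr7, the receptor of migrating dendritic cells and lymphocytes, and 8 of the 32 UMIs of Ccl22, a chemokine of dendritic cells and macrophages. Flt3, a receptor of dendritic cell precursors, had 3 of its 9 UMIs there. Complement C3 had 38 UMIs (42.5-fold) and Cd52, a leukocyte surface protein, 17 (74.0-fold). The 10 T cell markers gave 5 UMIs and the 9 cytotoxic and NK cell markers 4. The spot also held 5 of 39 UMIs of Ccl21a, 5 of 15 of the lymphatic gene Mmrn1, and the most Cxcl16 UMIs of any PD1 KO spot, 5.

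Across all 50 PD1 KO spots with Ccl5, MHC class II genes were 6.58-fold higher than elsewhere (5.99 to 7.23) and 4.91-fold without their richest spot. No single Ccl5 spot held more than 70 UMIs of Cd74. T cell markers were 4.67-fold higher (3.03 to 7.03), on 31 UMIs. Cd3d, a chain of the T cell receptor complex, had 5 of its 10 UMIs in Ccl5 spots, and Trac, the receptor's constant chain, 9 of 54. The cytotoxic and NK cell markers had 12 of their 27 UMIs in Ccl5 spots, a 12.8-fold difference (5.46 to 29.3), and 8.63-fold without the top Ccl5 spot (3.17 to 21.7). Klrd1, a receptor of NK and cytotoxic cells, had 5 of 11 there and Nkg7, a granule protein of such cells, 2 of 5. Cd8a had 0 of 2, Gzma 0 of 3, and Gzmb 0 UMIs in the section. Both lists were also high in PD1 KO spots with Ccl21a, which include the top Ccl5 spot, and with Ccl8. T cell markers were at 4.18-fold (1.96 to 7.93) and 4.04-fold (2.32 to 6.67) there. Cytotoxic and NK cell markers were at 22.3-fold (8.46 to 53.4) and 4.65-fold (1.17 to 13.6), on 8 and 4 UMIs. In Ccl5 spots macrophage markers were at 2.23-fold (2.11 to 2.36) and injury macrophage genes at 3.68-fold (3.30 to 4.10). In the PD1 Het section, the 9 Ccl5 spots held 2 UMIs of Trbc2 and 3 of Nkg7, each in 1 spot, and no Cd3d, Cd3e, Cd3g or Trac.

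**Figure D2:**
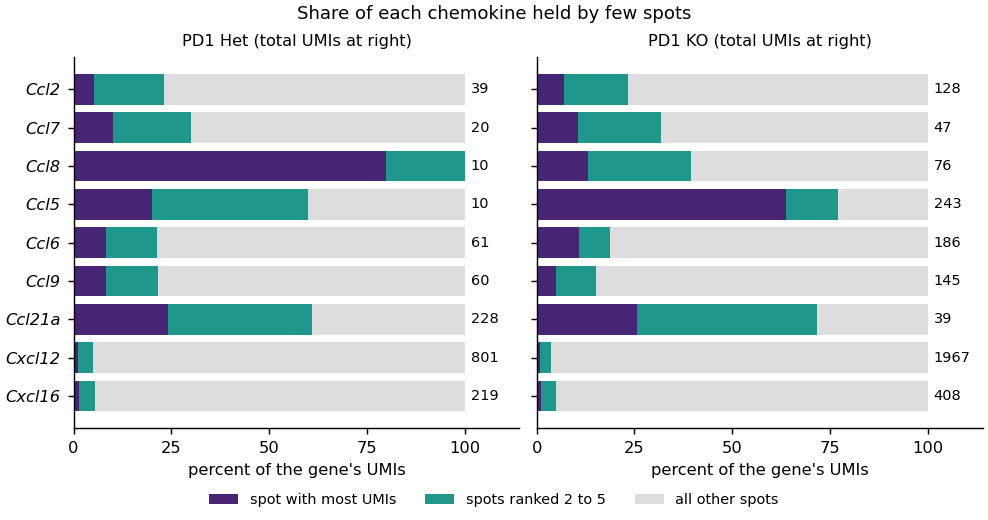
Percent of each chemokine's UMIs held by the spot with most, by the spots ranked 2 to 5 and by all other spots in each section; the numbers at the right are the UMIs of the gene. Ccl5 in the PD1 KO section, Ccl8 in the PD1 Het section and Ccl21a in both sections were held by few spots, while Cxcl12 and Cxcl16 were spread.

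The share held by the top spot differed between the genes and, for Ccl5 and Ccl8, between the sections. For Ccl5 it was 2 of 10 UMIs in PD1 Het and 63.8% of 243 in PD1 KO, for Ccl8 80.0% of 10 and 13.2% of 76, and for Ccl21a 24.1% and 25.6%. For Cxcl12 it was 1.25% and 0.97%, and for Cxcl16 1.37% and 1.23%. Ccl2, Ccl7, Ccl6 and Ccl9 had 4.83% to 10.8% of their UMIs in the top spot of either section.

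Ccl6, a CC chemokine of macrophages and neutrophils that acts through Ccr1, had 61 UMIs in 48 PD1 Het spots and 186 UMIs in 125 PD1 KO spots. The levels were 4.76 CPM (3.64 to 6.11) and 7.91 CPM (6.81 to 9.13), a relative ratio of 0.40 (-0.02 to 0.84). Ccl9, its neighbour and also a Ccr1 ligand, had 60 UMIs in 48 spots and 145 in 111, at 4.68 CPM (3.57 to 6.03) and 6.16 CPM (5.20 to 7.25), a relative ratio of 0.07 (-0.38 to 0.52). Neither interval left out 0. The pair shared 5 of 48 spots in the PD1 Het section, where Ccl9 was in 5.92% of all spots, and 30 spots in the PD1 KO section. There Ccl9 was in 24.0% of the Ccl6 spots and in 11.2% of the spots without Ccl6.

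Spots with Ccl6 or Ccl9 were richer in macrophage markers in both sections. For Ccl6 the difference was 2.09-fold (1.91 to 2.29) in PD1 Het and 2.53-fold (2.43 to 2.63) in PD1 KO, and for Ccl9 it was 1.86-fold and 2.58-fold. The median spot with Ccl6 held 464 CPM of the markers against 241 in PD1 Het, and 503 against 267 in PD1 KO. MHC class II genes were at 1.19-fold (0.78 to 1.73) in PD1 Het spots with Ccl6 and 3.80-fold in PD1 KO spots, and at 2.87-fold (2.16 to 3.77) and 3.02-fold (2.76 to 3.31) in spots with Ccl9. The injury macrophage genes were 5.09-fold higher in PD1 KO Ccl6 spots (3.68-fold without their richest spot) and 1.56-fold in PD1 Het. Other myeloid genes were also high beside Ccl6 in PD1 Het: mast cell markers at 7.07-fold (5.96 to 8.36), or 3.91-fold without their richest spot, and neutrophil markers at 5.44-fold (3.69 to 7.85). In PD1 KO the same lists were at 1.42-fold and 1.77-fold. For Ccl9, mast cell markers were at 2.86-fold (2.29 to 3.54) in PD1 Het and 0.83-fold (0.67 to 1.02) in PD1 KO.

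A single PD1 KO spot held the most UMIs of Ccl2 (9), Ccl7 (5), Ccl6 (20) and Ccl9 (7). It had 19699 UMIs and 5691 genes, little cardiomyocyte RNA (71 UMIs of 10 markers) and much scar matrix RNA, 8.12-fold the level of the rest. Injury macrophage genes were 23.3-fold higher there. Arg1, an arginase of alternatively activated macrophages, had 26 of its 71 UMIs in this spot, and Chil3, a chitinase-like protein of such cells, 5 of 8. Saa3, an acute phase protein, had 43 UMIs there and 10 in all other PD1 KO spots together. Ccl24, an eosinophil attractant, had 7 of 28. Other genes far above the rest of the section there were Col6a5 (22 UMIs, 750-fold), Myrf (11, 230-fold), Gda (10, 225-fold), Aldh1a3 (12, 199-fold) and Scara3 (24, 169-fold). The spot was not one of macrophage and matrix RNA alone. The PD1 KO Ccl2 spots held 147 epicardial marker UMIs with it and 132 without it, and 302 and 283 lymphatic marker UMIs. Ccl8, Ccl5, Ccl21a and Cxcl12 were at 0 UMIs in the same spot.

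**Figure D3:**
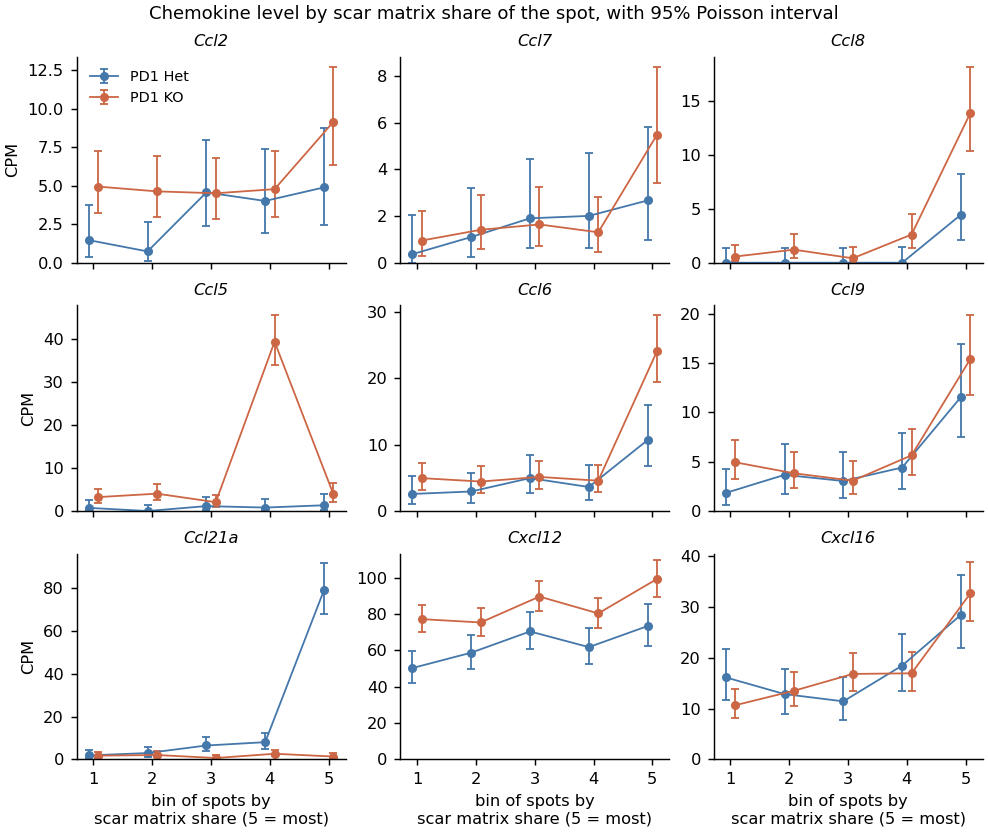
CPM of each chemokine in 5 equal bins of spots, ranked by the share of UMIs from 14 scar matrix genes (5 is the most), for both sections with 95% Poisson intervals. Ccl2, Ccl6, Ccl7, Ccl8, Ccl9, Cxcl12 and Cxcl16 have their highest point in the matrix-rich bin of both sections. In PD1 Het several of these intervals overlap those of other bins, and the Ccl8 point rests on 2 spots. Ccl21a is highest in that bin of the PD1 Het section alone, and the Ccl5 point at 39.3 CPM in PD1 KO contains the spot with 155 UMIs.

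To place the chemokines relative to the scar, spots were ranked by their share of scar matrix RNA and put into 5 bins of equal size. The share ran from 0.291% in the lowest bin to 1.41% in the highest in PD1 Het and from 0.403% to 2.24% in PD1 KO. Macrophage markers ran with it, from 236 to 673 CPM and from 239 to 1248 CPM. Ccl8 stood at 4.45 CPM (2.13 to 8.18) in the matrix-rich bin of the PD1 Het section and at 0 UMIs in the other 4. The intervals of those 4 bins reached up to 1.35 to 1.48 CPM. In PD1 KO it went from 0.57 CPM in the lowest bin to 13.9 (10.4 to 18.1) in the highest. That bin held 53 of the 76 PD1 KO UMIs.

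Ccl6 reached 10.7 CPM (6.84 to 15.9) in the matrix-rich bin of PD1 Het and 24.1 (19.4 to 29.5) in that of PD1 KO, after 2.57 to 4.95 and 4.43 to 5.13 CPM in the other bins. Ccl9 reached 11.6 (7.56 to 16.9) and 15.4 (11.7 to 19.9). Ccl7 stood at 2.67 and 5.49 CPM and Ccl2 at 4.89 and 9.15 CPM in the same bins. These are CPM, not relative ratios. The bins of the 2 sections also differed in their matrix and macrophage levels.

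Cxcl16, made both as a membrane protein and as a shed ligand of Cxcr6, had 219 UMIs in 181 PD1 Het spots and 408 in 313 PD1 KO spots. Its CPM was nearly the same, 17.1 (14.9 to 19.5) and 17.3 (15.7 to 19.1), and relative to the median gene it lay at -0.31 (-0.55 to -0.07). It went from 16.1 CPM in the lowest matrix bin to 28.5 in the highest in PD1 Het and from 10.7 to 32.7 in PD1 KO. Macrophage markers were 1.31-fold higher in PD1 Het spots with Cxcl16 and 1.64-fold in PD1 KO spots. Injury macrophage genes were at 2.14-fold (1.82 to 2.52) and 2.47-fold (2.27 to 2.69). MHC class II genes were at 1.45-fold (1.17 to 1.80) and 2.95-fold (2.70 to 3.23). These ratios include the richest spot of each list. Over 8605 genes with at least 100 UMIs in each section, the genes whose log2 values across spots were most like those of Cxcl16 in both sections were Ltbp2, Mfap4, Col5a1, Spon2 and Eln. These encode parts of the matrix and its elastic fibres, but r was at most 0.19 for Ltbp2 in PD1 Het and 0.24 for Mfap4 in PD1 KO, which is weak in counts this sparse.

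Cxcl12, the stromal ligand of Cxcr4, was found in most spots. It had 801 UMIs in 437 PD1 Het spots (53.9%) and 1967 UMIs in 705 PD1 KO spots (82.8%), at 62.5 CPM (58.3 to 67.0) and 83.6 CPM (80.0 to 87.4). At 10000 UMIs per spot the shares were 43.2% (39.7 to 46.8) and 50.5% (47.1 to 54.0). The relative ratio of 0.09 (-0.03 to 0.21) included 0. Its level was 50.3 CPM (42.2 to 59.4) in the lowest matrix bin and 73.4 (62.6 to 85.5) in the highest in PD1 Het, and 77.2 (69.9 to 85.1) and 99.4 (89.6 to 109.9) in PD1 KO. The lowest and highest bins did not overlap in either section, but the bins between did not rank in order. Its spots were richer in arterial endothelial markers, 1.39-fold (1.22 to 1.58) in PD1 Het and 1.68-fold (1.48 to 1.93) in PD1 KO. Gja5, a gap junction protein of arterial endothelium, was 1.70-fold and 2.02-fold higher, and Sema3g, another arterial gene, 2.19-fold and 2.44-fold.

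The genes most like Cxcl12 across spots in both sections were Myh11, Bgn, Fbln5, Mgp and Tagln, of which Myh11 and Tagln are smooth muscle genes and the rest matrix genes. Myh11 had r = 0.23 across 811 spots and 0.24 across 851. These spots share a library and a depth, and the values are weak. Myh11 was 4.03-fold and 3.39-fold higher in spots with Cxcl12, on 203 and 475 UMIs. The smooth muscle markers as a list, Myh11 among them, were only 1.32-fold (1.25 to 1.39) and 1.21-fold (1.15 to 1.27) higher. Macrophage markers were at 1.08-fold and 1.02-fold in the same spots.

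Ccl21a, the lymphatic ligand of Ccr7, had the most negative ratio of the 9 genes. It had 228 UMIs in 39 of 811 PD1 Het spots and 39 UMIs in 15 of 851 PD1 KO spots, at 17.8 CPM (15.6 to 20.3) and 1.66 CPM (1.18 to 2.27). The relative ratio was -3.75 (-4.28 to -3.26), and -3.78 without the top spot of each section. The highest PD1 Het spots held 55, 31, 25 and 15 UMIs, and the highest PD1 KO spots 10, 7, 5 and 4. At 10000 UMIs per spot, 29 of 759 PD1 Het spots (3.82%, 2.57 to 5.44) and 9 of 839 PD1 KO spots (1.07%, 0.492 to 2.03) held Ccl21a. The number of spots thus differed by less than the UMIs.

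The 8 lymphatic markers together were 2.43-fold higher (2.04 to 2.87) in PD1 Het spots with Ccl21a and at 1.21-fold (0.93 to 1.56) in PD1 KO spots with it. Epicardial markers were about as high in the PD1 Het Ccl21a spots, at 2.54-fold (1.92 to 3.32), and at 1.85-fold (1.32 to 2.53) in those of PD1 KO. Mmrn1, a protein of lymphatic endothelium, was high in the Ccl21a spots of both sections. In the PD1 Het section 31 of the 38 Mmrn1 UMIs lay in the 39 Ccl21a spots, 68.4-fold above the other spots, and in the PD1 KO section 10 of 15 lay in the 15 Ccl21a spots, 106-fold above the others. The PD1 KO value rests on few UMIs, several of which lay in the spot with 155 Ccl5 UMIs. Lyve1, a hyaluronan receptor of lymphatic vessels and of some macrophages, had 33 of 59 UMIs in Ccl21a spots in PD1 Het and 4 of 47 in PD1 KO. Reln was 5.98-fold higher in the PD1 Het Ccl21a spots and 2.72-fold in those of PD1 KO, on 12 and 2 UMIs. Flt4, the receptor for lymphatic growth factors, was at 3.03-fold and 1.40-fold. Prox1, the lymphatic transcription factor that is also found in cardiomyocytes, was 0.87-fold and 0.71-fold. Macrophage markers were at 0.78-fold (0.68 to 0.90) in PD1 Het Ccl21a spots and at 1.95-fold (1.76 to 2.15) in those of PD1 KO. MHC class II genes were at 0.91-fold (0.57 to 1.39) and 5.44-fold (4.68 to 6.30), and 35.3% of their PD1 KO UMIs in Ccl21a spots lay in the spot with 155 Ccl5 UMIs.

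Of the 8 lymphatic markers, 3 were themselves lower in the PD1 KO section by more than 1.5-fold, against 4.95% of all genes, or 10.3% of those below 300 UMIs. Mmrn1 had 38 and 15 UMIs, a relative ratio of -2.55 (-3.52 to -1.65), Lyve1 lay at -1.54 (-2.12 to -0.96) and Reln at -1.28 (-1.93 to -0.62). The other 5 did not share this: Prox1 lay at 0.48, Flt4 at 0.18, Nts at 0.04, Pdpn at -0.12 and Sned1 at -0.35. The list as a whole had a median of -0.24. Its part in the Ccl21a difference was not tested.

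In the PD1 Het section 178 of the 228 Ccl21a UMIs were in the matrix-rich bin of spots, 79.2 CPM (68.0 to 91.7) against 8.03 CPM in the next bin. In PD1 KO that bin held 5 of 39 UMIs, 1.31 CPM (0.425 to 3.05), within the range of the other bins (3 to 12 UMIs, 0.615 to 2.61 CPM). The 162 PD1 Het spots richest in fibroblast markers held only 11 of the 228 UMIs, and the 162 richest in macrophage markers 9. The 162 richest in epicardial markers held 134, and the 162 richest in lymphatic markers 183. In PD1 Het Ccl21a spots scar matrix genes were at 1.12-fold (1.09 to 1.15) and fibroblast markers at 0.86-fold (0.81 to 0.91). The PD1 Het spot with 55 UMIs held 6.84-fold more epicardial marker RNA than the rest of its section and 9.43-fold more lymphatic marker RNA, with 23 UMIs of C3. The PD1 KO spot with 10 UMIs differed: red cell genes were 16.5-fold higher there and Vwf, the clotting factor carrier of endothelium, had 17 UMIs. Genes of thymus and lymph node gave 11 UMIs in all of PD1 Het and 22 in all of PD1 KO, of which 2 and 0 lay in Ccl21a spots.

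**Figure D4:**
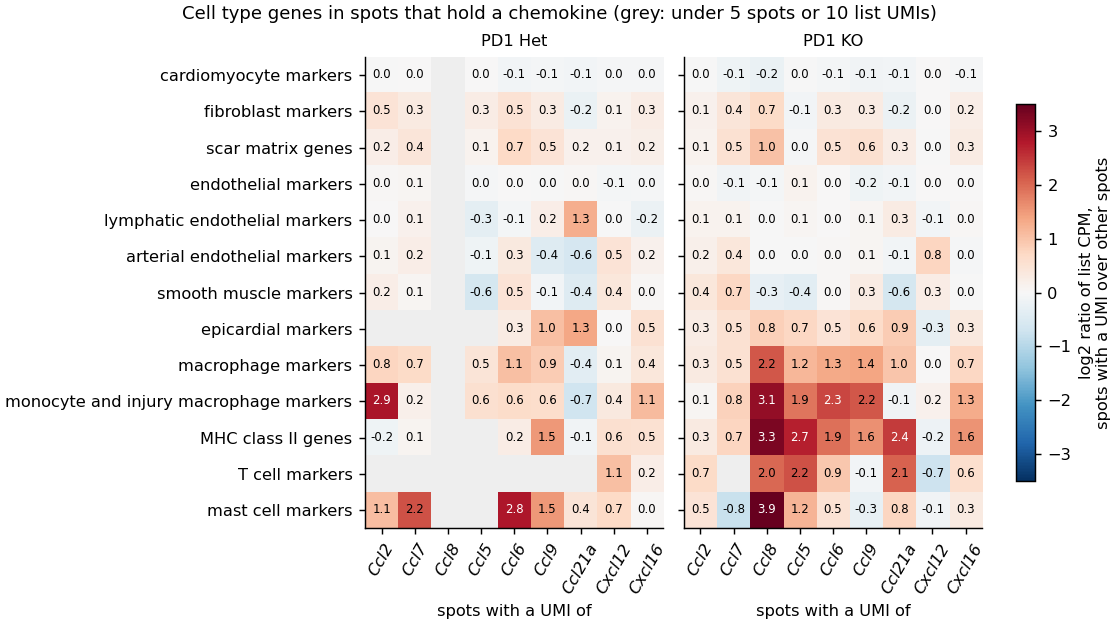
Log2 ratio of the summed CPM of each cell type list in spots with at least 1 UMI of a chemokine over all other spots, per section; grey cells have under 5 spots or 10 list UMIs. Macrophage, injury macrophage and MHC class II genes are high beside Ccl8, Ccl5, Ccl6 and Ccl9 in the PD1 KO section. The 2 macrophage lists are less so beside Cxcl16 and Ccl7. MHC class II genes there are 2.95-fold higher beside Cxcl16, near the 3.02-fold beside Ccl9, and 5.44-fold beside Ccl21a. Lymphatic and epicardial markers are high beside Ccl21a in the PD1 Het section and arterial markers beside Cxcl12 in both.

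Some ratios in the map of neighbouring cell type genes rested on a single spot. The injury macrophage genes in PD1 Het Ccl2 spots were 7.29-fold higher, but 109 of 140 UMIs lay in 1 spot, and without it the ratio was 1.66. Cardiomyocyte markers lay within 0.84-fold and 1.01-fold for all 9 genes, leaving out the 2 PD1 Het spots with Ccl8.

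The sections were compared in the same way for receptors. Of 11 chemokine receptors, 5 had 30 UMIs or more, of which 3 exceeded the median gene by 1.5-fold or more and 0 fell short by as much, with a list median of 0.59. Over all genes with as many UMIs these shares were 7.05% and 4.95%, and below 300 UMIs 14% and 10.3%. Ccr2, the monocyte receptor for Ccl2 and Ccl7, had 13 and 60 UMIs, 1.01 and 2.55 CPM, with a relative ratio between 0.12 and 1.99. Ccr7 had 4 and 35 UMIs, at 1.92 (0.44 to 3.88).

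Ccr1, the receptor of Ccl6 and Ccl9, had 33 and 69 UMIs and lay at -0.14 (-0.76 to 0.50). Cxcr4, the receptor of Cxcl12, had 140 and 472 UMIs, 10.9 and 20.1 CPM, at 0.55 (0.27 to 0.83), just under the 1.5-fold limit. Cx3cr1 of monocytes and macrophages had 63 and 219 UMIs, at 0.59 (0.18 to 1.02). Cxcr6, the receptor of Cxcl16, had 0 UMIs in PD1 Het and 2 in PD1 KO, both in spots with Cxcl16. Such spots were 36.8% of the PD1 KO spots. Ccr8, the receptor of Ccl8, had 0 in both sections, which was taken to allow about 3 counts in each.

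**Figure D5:**
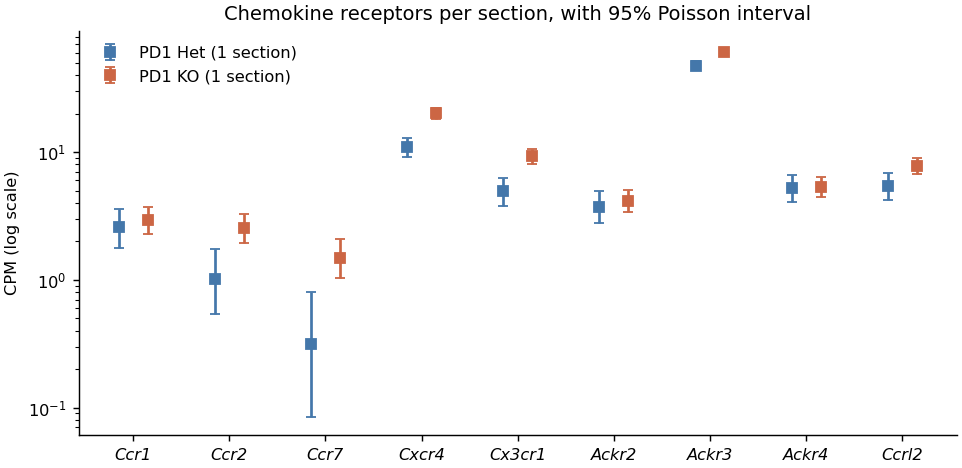
CPM (log axis) of chemokine receptors and atypical receptors with a summed count of 30 UMIs or more; points are 1 section each and bars 95% Poisson intervals. CPM is not corrected for the median gene, which lies 0.33 higher on the log2 scale in PD1 KO; past that shift Ccr2, Ccr7, Cxcr4 and Cx3cr1 have ratios whose intervals lie above 0, and Ackr3 lies at 0.01.

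The atypical receptors bind chemokines without signalling through G proteins and can clear them. Of 5, 4 had at least 30 UMIs, and 0 passed 1.5-fold in either direction, with a median of -0.08. Ackr3, which scavenges Cxcl12, had 608 and 1416 UMIs and lay at 0.01 (-0.13 to 0.15). Ackr4, which takes up Ccl21a, had 67 and 125 UMIs, at -0.31 (-0.75 to 0.14). Of 9 genes that cut chemokines or hold them at the cell surface, 8 had at least 30 UMIs and 1, Mmp14, lay at least 1.5-fold below the median gene, at -0.73. Over all genes with at least 30 UMIs, 7.05% lay that far above and 4.95% below, and below 300 UMIs 14% and 10.3%. Counts this small cannot be told from those shares. Adam10, a protease that sheds Cxcl16, lay at 0.08 (-0.04 to 0.20).

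Rare ligands and receptors met in few spots, and Cxcl12 and Cxcr4 in many. Ccl21a and Ccr7 shared 2 of the 15 PD1 KO spots with Ccl21a, which held 14 of the 35 Ccr7 UMIs, 10 of them in the spot with 155 Ccl5 UMIs. In PD1 Het 0 of the 39 Ccl21a spots held Ccr7, which was in only 4 of all 811 spots, too few to compare. The PD1 KO spots with Ccl8 held 9 of 60 Ccr2 UMIs, 4.72-fold above the other spots (2.04 to 9.67). For Ccl2 the values were 3 UMIs of Ccr2, 0.46-fold (0.09 to 1.42). Cxcr4 was in 66 of the 437 PD1 Het spots with Cxcl12, at 0.89-fold the level of the other spots (0.63 to 1.26), and in 291 of the 705 PD1 KO spots, at 1.37-fold (1.04 to 1.84).

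Ccr2 was also high in spots with the myeloid chemokines that do not bind it: 3.78-fold (2.15 to 6.54) with Ccl6 and 4.43-fold (2.53 to 7.63) with Ccl9, in PD1 KO. Ccr1, which does bind them, was at 1.28-fold (0.63 to 2.42) with Ccl6 and at 2.92 CPM with Ccl9 against 2.93 CPM elsewhere.

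Other chemokines were few. Of 15 other CC chemokines 5 had at least 30 UMIs. Ccl22 alone lay above 1.5-fold, with 4 and 32 UMIs and a relative ratio of 1.79 (0.30 to 3.75), and Ccl24 below, with 20 and 28 UMIs at -0.72 (-1.60 to 0.18). Ccl27a, a skin and stromal chemokine, had 230 and 479 UMIs, at -0.15 (-0.38 to 0.08), and Ccl12, a mouse relative of Ccl2, had 28 and 78, at 0.27 (-0.37 to 0.95). Of 15 other chemokines of the CXC, CX3C and XC kinds, 4 had at least 30 UMIs, 0 lay above and 2 below. For both lists the shares over all genes with as many UMIs were 7.05% above and 4.95% below, and below 300 UMIs 14% and 10.3%. Pf4, made by platelets and macrophages, had 542 and 729 UMIs, at -0.78 (-0.94 to -0.62), and Cxcl9, induced by interferon gamma, 23 and 29, at -0.87 (-1.71 to -0.02).

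Several chemokines met in the same spot more often in the deeper section. In PD1 Het 377 of 811 spots held UMIs of 1 of the 9 genes, 165 of 2, 33 of 3 and 3 of 4, and none held more. In PD1 KO 30 spots held 4, 18 held 5 and 2 held 6. The depth per spot also differed between the sections, and its part in these numbers was not tested.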

How the data were processed

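Visium libraries from 1 PD1 Het and 1 PD1 KO heart section were analysed. The deposited matrices hold, per the file headers, unnormalized UMI counts from Space Ranger 1.1.0, and the submitters' processing notes name mm10 and GRCm38 as builds. How reads were aligned, and by which rule spots were kept before deposit, is not given here. Gene positions came from GENCODE vM21, in which 32235 of 32285 feature identifiers were found, and promoter windows from RefSeq.

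Spots under 500 UMIs were dropped (1 of 812 in PD1 Het, 8 of 859 in PD1 KO), and counts were summed per section and scaled to 1000000 UMIs of all genes (CPM). Intervals are 95% exact Poisson for sums, exact Clopper-Pearson for shares and exact conditional for ratios. A count of 0 was taken to allow 3 counts, or 0.234 CPM in PD1 Het and 0.128 in PD1 KO. The exact Poisson interval of a count of 0 reaches somewhat higher. The median ratio came from 11455 genes with a summed count of 100 UMIs or more. A gene was called at 1.5-fold from the median gene with at least 30 UMIs. No test, p-value or standard error was computed, because each group has 1 section and spots are not replicates. Nothing says that the sections are typical of their genotype.

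The 9 genes and the 28 gene lists (235 list entries, 1 not matched: Cxcl11) were chosen with earlier results of these data known. Named beside the members are up to 6 genes of each pathway list with most UMIs, the 5 genes most like a member with at least 100 UMIs in each section (Pearson r of log2 of counts per 10000 plus 1), the up to 8 genes with the largest ratio in a spot that holds at least 10 UMIs and 10% of a member's UMIs, and the 2 genes with most UMIs of each cell type list. Other list genes, among them Arg1, Chil3, Mmrn1, Lyve1, Cd3d and Cma1, were named after their values were seen. Lists were summed in spots with at least 1 UMI of a member and in the others. Thinning drew 10000 UMIs per spot and left out shallower spots, 52 in PD1 Het and 12 in PD1 KO. Spots were not placed in space. Protein sequences were not used here, and 1 receptor gene is not reported here. The scripts were tested on simulated counts. Python 3.11.15, numpy 2.4.6, scipy 1.17.1, pandas 2.3.3 and edgeR 4.0.16 (normalization factors alone) were used.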

Additional observations from a re-analysis of the deposited data

How the results depend on the processing

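With 1 section per group, no difference here can be told from the spread between animals, and depth, mitochondrial share and genotype cannot be told apart. Relative log2 ratios were recomputed under 7 other settings, and no ratio past 1.5-fold reversed its direction. Without the top spot of each section Ccl5 lay at 2.25 and Ccl8 at 3.84 (1.93 to 6.91), the latter on 2 PD1 Het UMIs. Ccl8 lay at 3.45 with spots of at least 5000 UMIs and at 3.07 after thinning to 10000 UMIs. In both the PD1 Het section was at 0 and was set to 3 counts, and the error of the PD1 KO count was left out. Thinning also moved Ccl21a to -2.91. With no shift to the median gene, Cxcl12 lay at 0.42 and Cxcl16 at 0.021, and 4 chemokines in place of 2 passed the upper 1.5-fold limit. That limit was then counted from equal CPM, where the median gene itself stood at 0.33, so genes in general pass it more easily. The share of all genes that pass it is not given here. The 7.05% above was counted from the median gene and cannot be set beside these 4. Without mitochondrial genes and with no shift, Cxcl12 lay at 0.24. The edgeR factors, no filter on spots and, for the counts of genes, a fold of 2 moved no value beyond its counting interval. The share of spots with a UMI moved beyond its interval for 11 of 18 values at 5000 UMIs and for 13 of 18 with no thinning, and with 3 bins in place of 5 the level in the matrix-rich bin moved for 7 of 18. Cell type ratios were also recomputed under 2 alternatives chosen after seeing the data: of 214 values for 13 cell type lists, 20 moved without the top spot of the chemokine and 44 without the top spot of the list. No paired analysis was possible because each group has 1 section, and leaving out a replicate was not possible for the same reason.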
